A study of Mus musculus with 18 samples.

Results

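Heat shock genes and genes of the endoplasmic reticulum unfolded protein response were followed in T cells sorted from B16-OVA melanomas. The 40 genes were taken by symbol from a named list of chaperones, co-chaperones and their regulators, drawn up with earlier results of these data known, and all 40 were found among the 37236 genes of the table. 21 have heat shock roles in the cytosol, nucleus or mitochondria, and 19 have roles in or around the endoplasmic reticulum. All but Hspb1 (mean of 9.31 normalized counts) reached the mean of 10 normalized counts over all libraries that was required for testing, which left 39 members among 11992 tested genes.

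Heat shock proteins bind unfolded stretches of other proteins and let them fold, refold or be degraded. In the cytosol HSP70 works with J-domain partners and nucleotide exchange factors, HSP90 works on late folding intermediates such as kinases and steroid receptors, and heat shock factor 1 (Hsf1) drives transcription of these genes when unfolded protein builds up. In the endoplasmic reticulum the sensors Ire1 (Ern1), Atf6 and Perk respond to unfolded protein by raising chaperones, disulfide isomerases and degradation factors, in part through spliced Xbp1. Lymphocytes use both systems when they grow and secrete, and heat shock genes are also known to be induced when tissue is warmed and digested.

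NR2F6 is a nuclear orphan receptor that acts in T cells, and PD-L1 is the ligand of the checkpoint receptor PD-1; the experiment asked how loss of the one and blockade of the other, alone and together, act on tumor-infiltrating T cells. Wild-type (Nr2f6+/+) and Nr2f6-/- mice, all on the C57BL/6 strain, received 500000 B16-OVA cells under the skin and then 0.5 mg of anti-PD-L1 antibody or of IgG2b control antibody, given from day 3 on, and tumors were taken on day 14. RNA of the sorted CD3+ cells was sequenced from the 3′ end of transcripts in 18 libraries: 3 of Nr2f6+/+ with IgG2b, 3 of Nr2f6-/- with IgG2b, 6 of Nr2f6+/+ with anti-PD-L1 and 6 of Nr2f6-/- with anti-PD-L1. The methods give an age range in weeks for the mice injected with tumor cells, which is that of young adults. The labels give no age per library. The principal component plot of the study counts fewer anti-PD-L1 libraries in each genotype than the labels hold; all labelled libraries were used here. The deletion is carried by every cell of the Nr2f6-/- mice, not by T cells alone, and all tumors carry ovalbumin as a foreign antigen. The cells were enriched with CD4 and CD8 beads, pooled and sorted for CD3, so a library holds both CD4 and CD8 T cells, and all of them went through warm enzymatic digestion of the tumor before RNA was taken. Nothing in the labels says that the libraries of a group are separate mice, so the p-values measure the spread between these libraries, which may be partly technical.

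Libraries held 12473391 to 18609482 reads on genes, and 3 reads correspond to 2.46 to 3.64 normalized counts. Nr2f6 was at 0 in all 9 Nr2f6-/- libraries and at 20.2 to 201 normalized counts in the 9 wild-type libraries. All 10 T cell markers were detected, with a summed level of 56511 to 63145 in Nr2f6+/+ with IgG2b, 66910 to 71847 in Nr2f6-/- with IgG2b, 60954 to 87046 in Nr2f6+/+ with anti-PD-L1 and 80560 to 96866 in Nr2f6-/- with anti-PD-L1. All 12 macrophage and monocyte markers were detected as well, and their sum was 15511 to 20078 and 9070 to 12804 with IgG2b (Nr2f6+/+ and Nr2f6-/-) against 1633 to 6643 and 917 to 2616 with anti-PD-L1. Of the 12 immediate-early genes, which move with cell handling as well as with stimulation, all were detected, with a sum of 32175 to 46662 with IgG2b, 11862 to 20395 in Nr2f6+/+ with anti-PD-L1 and 16006 to 35487 in Nr2f6-/- with anti-PD-L1. The sum of 8 melanocytic markers was 2579 to 4757 and 1240 to 2433 with IgG2b (Nr2f6+/+ and Nr2f6-/-, no overlap) and 2077 to 7835 (median 3564) and 799 to 4489 (median 1284) with anti-PD-L1; all 8 were detected in each group but Nr2f6-/- with anti-PD-L1, where 1 was at 0. The library numbers fall into 2 sets: replicates 1 to 3 of all 4 groups form the first, and replicates 4 to 6 of both anti-PD-L1 groups form the second, so a difference of anti-PD-L1 against IgG2b over both sets also holds the difference between the sets.

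The control regions of these genes carry the elements by which each arm is known, and 8 of them are shown because they hold the motifs that separate both arms in this list. Promoter windows of 250 bases before to 50 after the transcription start were read from RefSeq (GRCm38.p6); 31 of the 40 members had 1 or more. Each line gives the 150 bases before the start, 5′ to 3′ on the gene's strand, with the motif in capitals: paired heat shock units (GAANNTTC or TTCNNGAA) for the first 5, and the endoplasmic reticulum stress element for the last 3 (CCAAT, 9 bases and CCACG in Hspa5 and Hsp90b1, read on the other strand in Hsp90b1; ATTGG, 1 base and CCACG in Herpud1).
Hspa1a (chr17:34972157-34972306, minus strand): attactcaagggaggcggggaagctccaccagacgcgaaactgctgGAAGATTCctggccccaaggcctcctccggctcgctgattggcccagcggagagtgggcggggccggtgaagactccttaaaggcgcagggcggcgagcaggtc
Hspa1b (chr17:34959239-34959388, minus strand): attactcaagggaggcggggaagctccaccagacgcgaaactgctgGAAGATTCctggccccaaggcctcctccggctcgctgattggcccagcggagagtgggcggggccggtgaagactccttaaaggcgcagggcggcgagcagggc
Hspb1 (chr5:135887769-135887918, plus strand): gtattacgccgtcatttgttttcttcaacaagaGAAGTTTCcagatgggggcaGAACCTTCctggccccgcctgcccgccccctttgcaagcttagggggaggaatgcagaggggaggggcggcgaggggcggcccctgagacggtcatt
Hspd1 (chr1:55087933-55088082, minus strand): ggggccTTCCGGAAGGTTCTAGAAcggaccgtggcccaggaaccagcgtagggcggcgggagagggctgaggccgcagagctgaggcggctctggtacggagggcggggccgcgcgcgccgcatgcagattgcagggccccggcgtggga
Hspe1 (chr1:55087998-55088147, plus strand): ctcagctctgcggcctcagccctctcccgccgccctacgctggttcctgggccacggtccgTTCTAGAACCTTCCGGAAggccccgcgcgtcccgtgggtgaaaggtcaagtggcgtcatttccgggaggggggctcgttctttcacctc
Hspa5 (chr2:34771940-34772089, plus strand): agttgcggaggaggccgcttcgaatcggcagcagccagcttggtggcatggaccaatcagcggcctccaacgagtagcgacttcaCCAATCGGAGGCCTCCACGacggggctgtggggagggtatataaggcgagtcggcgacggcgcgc
Hsp90b1 (chr10:86705445-86705594, minus strand): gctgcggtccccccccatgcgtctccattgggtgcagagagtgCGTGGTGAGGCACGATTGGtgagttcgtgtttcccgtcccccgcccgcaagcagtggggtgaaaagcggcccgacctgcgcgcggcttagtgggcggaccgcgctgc
Herpud1 (chr8:94386279-94386428, plus strand): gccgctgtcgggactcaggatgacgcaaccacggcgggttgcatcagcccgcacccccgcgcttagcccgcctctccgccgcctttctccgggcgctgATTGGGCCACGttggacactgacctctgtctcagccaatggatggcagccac

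Hspa1a and Hspa1b, the inducible HSP70 genes, differ in 4 of the 300 bases of their windows. Hspd1 and Hspe1, which encode the mitochondrial chaperonin and its lid, lie head to head. RefSeq gives Hspd1 a pair of starts: from the one shown it is 216 bases to the start of Hspe1, and the same run of alternating heat shock units stands before both, while the window of the other start, which lies inside Hspe1, holds 0 of the motifs searched. Searched on both strands, a GAANNTTC or TTCNNGAA pair was found in 10 of the 15 heat shock members with a window and in 0 of the 16 endoplasmic reticulum members, against 15.1% of all 32851 windows. Runs of at least 3 alternating units, each of which contains both pairs, were found in Chordc1, Hspd1, Hspe1 and Hsph1 and in 0.603% of all windows. An endoplasmic reticulum stress element of either kind was found in 9 of the 16 endoplasmic reticulum members (Calr, Canx, Creld2, Dnajb11, Dnajc3, Herpud1, Hsp90b1, Hspa5 and Pdia6), in 0 of the 15 heat shock members and in 0.155% of all windows. TGACGTGG, the unfolded protein response element, was found in 0 members and in 0.676% of windows. These are matches of letters in the windows, not measured binding.

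All 39 tested members were read in most libraries: 38 of the 40 were at 0 in no library, Hsf1 was at 0 in 1 library, and Hspb1 was at 0 in 11. Together the members made up 0.965% ± 0.069 (SD, n = 3) of the normalized counts of Nr2f6+/+ libraries with IgG2b, 0.914% ± 0.046 (SD, n = 3) in Nr2f6-/- with IgG2b, 0.945% ± 0.086 (SD, n = 6) in Nr2f6+/+ with anti-PD-L1 and 0.812% ± 0.078 (SD, n = 6) in Nr2f6-/- with anti-PD-L1. The lowest mean share thus belonged to Nr2f6-/- with anti-PD-L1, where single libraries lay between 0.728% and 0.938% and overlapped the 0.808% to 1.04% of Nr2f6+/+ with anti-PD-L1.

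Between libraries of a group the members varied less than the typical gene: the residual SD on the log2 scale had a median of 0.39 over the 39 members and of 0.88 over all tested genes, and 31 members lay under the latter. Among genes with a mean log2 level of at least 10 the medians were closer, 0.30 for 22 members and 0.35 for 2612 genes. Canx, a lectin chaperone of the endoplasmic reticulum membrane, varied least, with 0.12. At the other end stood Cryab, a small heat shock protein, with 2.15, and the inducible HSP70 genes Hspa1b and Hspa1a with 1.07 and 1.02.

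**Figure D1:**
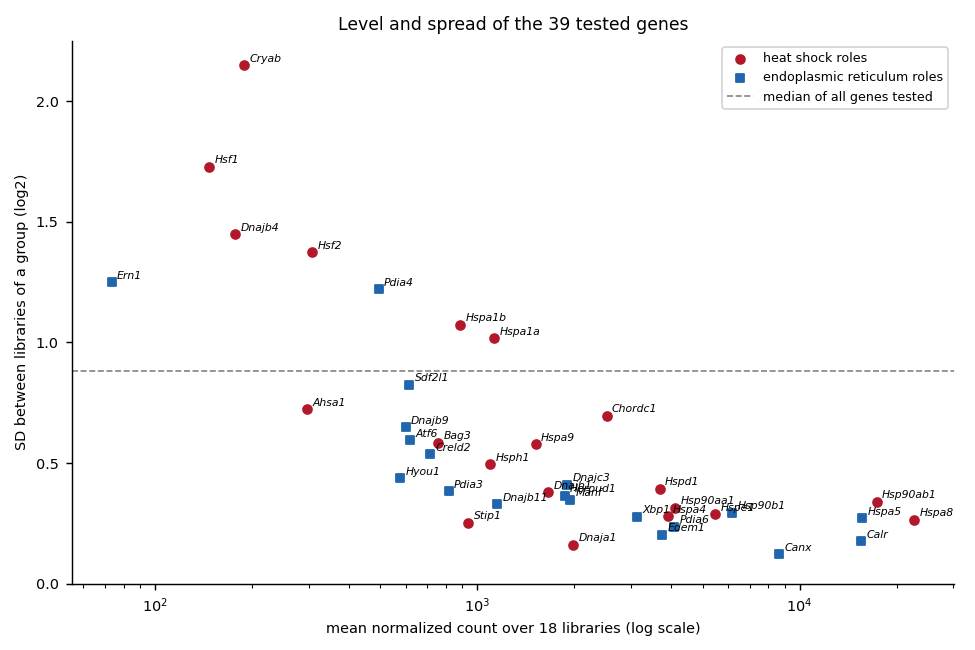
Mean normalized count over 18 libraries (x, log scale) against the SD between libraries of a group on the log2 scale (y) for the 39 tested members; red circles are heat shock roles, blue squares endoplasmic reticulum roles, and the dashed line is the median of all tested genes, 0.88. Cryab, Hsf1, Dnajb4, Hsf2, Ern1, Pdia4, Hspa1b and Hspa1a lie above the line and 31 members lie under it.

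With both genotypes under anti-PD-L1, no member passed an adjusted p of 0.05 for Nr2f6-/- against Nr2f6+/+ (0 of 39), where 0.175% of all tested genes did, 0.0917% higher and 0.0834% lower (limma on log2 of the normalized count plus 1, Benjamini-Hochberg over all 11992 genes). edgeR and DESeq2 on the recovered reads called 0 members as well, beside 22 and 184 genes in all. With these tools 7 and 8 members were under an unadjusted 0.05, for which no share over all genes is given here. An unadjusted p under 0.05 was reached by 9 members against 9.73% of all genes: 8 were lower in Nr2f6-/- (5.07% of all genes) and 1 was higher (4.66%). The members' median log2 difference was -0.17, with 26 of 39 below 0, beside a median of -0.0049 over all genes, of which 50.3% were below 0. Heat shock members had a median of -0.28 (15 of 20 below 0), and endoplasmic reticulum members a median of -0.02 (11 of 19 below 0). The melanocytic sum, with its median of 1284 against 3564, was lower in Nr2f6-/- as well, with overlap, and its part in these differences was not tested. The 8 lower members were Hsp90aa1, Hsp90ab1, Hspd1, Hspa1a, Dnaja1, Pdia4, Canx and Calr, and the higher one was Hsf1. No member had all 6 Nr2f6-/- libraries on one side of all 6 Nr2f6+/+ libraries (0 of 39, against 0.592% of all genes). In a mixed population fewer cells of a type and less RNA per cell cannot be told apart, and this holds for every difference given here.

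With IgG2b, 0 members and 0% of all genes passed the adjusted threshold for Nr2f6-/- against Nr2f6+/+, and 1 member, Bag3, was lower in Nr2f6-/- at an unadjusted p under 0.05 (5.35% of all genes, 3.32% lower and 2.03% higher). edgeR and DESeq2 called 0 members too, beside 0 and 88 genes in all. The median difference was -0.06 for the members, with 22 of 39 below 0, and -0.06 for all genes, with 54.1% below 0. Of the members with IgG2b, the heat shock roles had a median of -0.28 (15 of 20 below 0) and the endoplasmic reticulum roles one of 0.16 (7 of 19 below 0). Without overlap between the 3 libraries of each genotype stood 7 members, against 14.2% of all genes: Bag3, Stip1 and Hspa8 lower in Nr2f6-/- (8.07% of all genes), and Edem1, Calr, Manf and Hspd1 higher (6.1%).

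Anti-PD-L1 was compared with IgG2b within each genotype. In Nr2f6+/+ 0 members passed (0.242% of all genes), 3 reached an unadjusted p under 0.05 (7.24%), with Bag3 and Herpud1 lower (5.05%) and Calr higher (2.19%), and the median was -0.12 (24 of 39 below 0) beside -0.10 over all genes (57.3% below 0). That shift of all genes depended on the scaling: it was 0.00 after quantile normalization and -0.19 after scaling to the same total, with member medians of -0.15 and -0.21. In Nr2f6-/- 0 members passed (0.325%), 7 reached an unadjusted p under 0.05 (9.7%), 6 of them lower (5.35%) and 1, Stip1, higher (4.34%), and the median was -0.24 beside -0.04; 28 of 39 members were below 0, against 52.8% of all genes. Without overlap between treatments stood 5 members in Nr2f6+/+ (4.54% of all genes), with Bag3 lower (3.22%) and Calr, Hspa8, Canx and Pdia4 higher (1.32%), and 2 in Nr2f6-/- (5.12%), with Hspa5 lower (3.15%) and Stip1 higher (1.97%). The combined comparison, Nr2f6-/- with anti-PD-L1 against Nr2f6+/+ with IgG2b, called 0 members (0.617%); 7 had an unadjusted p under 0.05, all lower (9.04% of all genes, 5.92% lower and 3.12% higher), and the median was -0.26 (29 of 39 below 0) beside -0.12 over all genes (57.8% below 0). In that comparison 2 members did not overlap (6.17%), Hsph1 lower (4%) and Pdia3 higher (2.17%). The test of whether the treatment difference itself differed between genotypes called 0 members and 0% of all genes, with 2 members under an unadjusted 0.05 (4.97%). These comparisons share groups, so their values are not independent of each other.

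**Figure D2:**
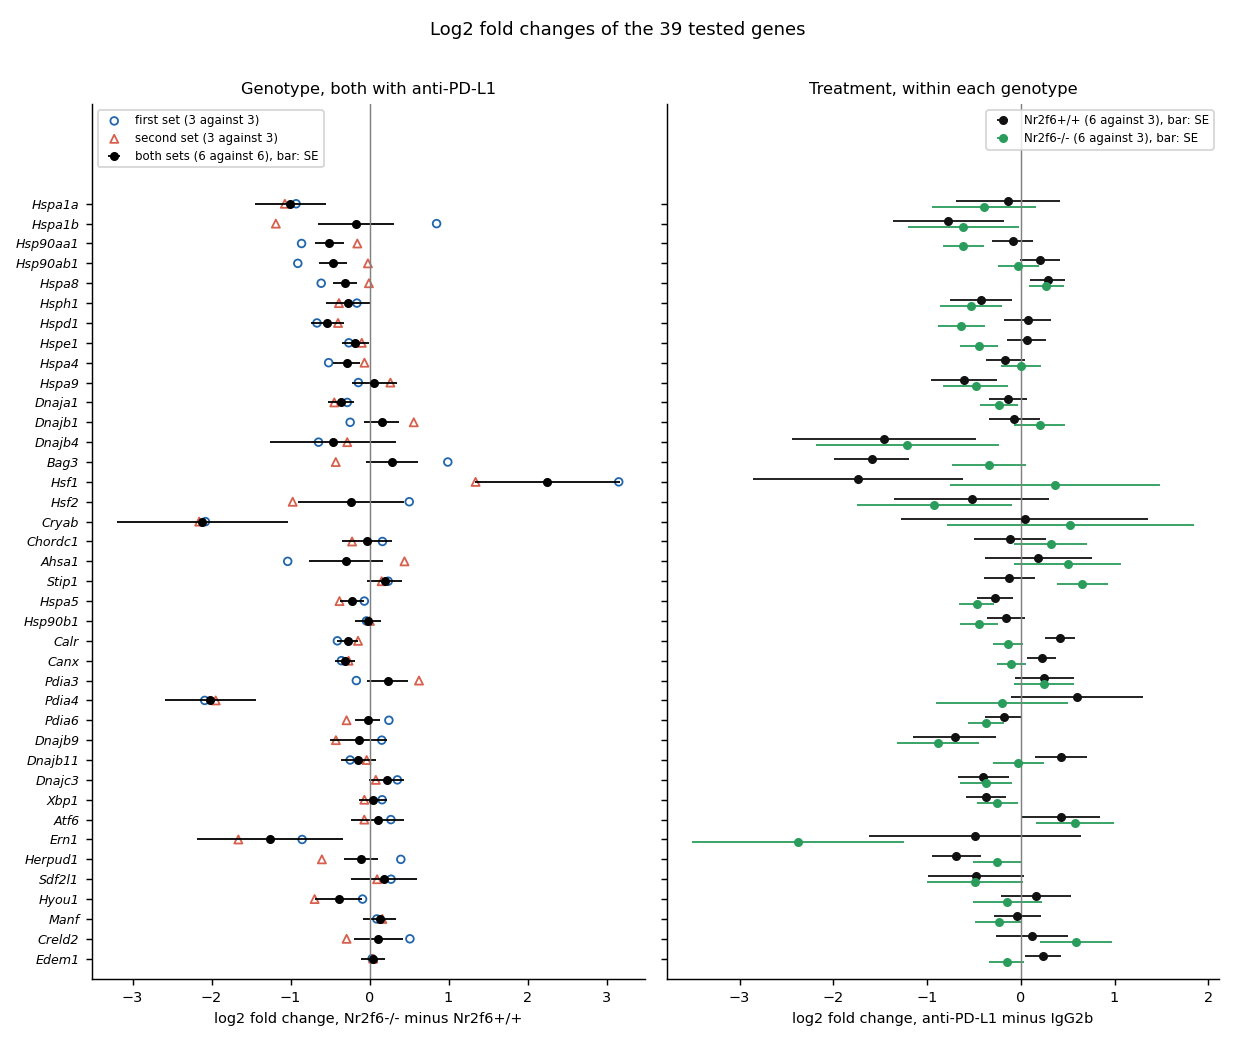
Log2 fold changes of the 39 tested members, heat shock roles above and endoplasmic reticulum roles below. Left, Nr2f6-/- minus Nr2f6+/+ with anti-PD-L1: black points with SE for both library sets (6 against 6), blue circles for the first set and red triangles for the second (3 against 3 each); right, anti-PD-L1 minus IgG2b in Nr2f6+/+ (black) and Nr2f6-/- (green) with SE. On the left 26 of 39 black points lie below 0, and Hsp90ab1 has the first set at -0.91 and the second at -0.02.

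In cytosolic HSP90 the genotype difference with anti-PD-L1 was larger in the first library set than in the second, a gap that did not pass its own adjusted test. Hsp90ab1 encodes the constitutive HSP90 and Hsp90aa1 the stress-inducible one. Hsp90ab1 in Nr2f6-/- with anti-PD-L1 stood at 11168, 10472 and 10115 normalized counts in the first set and at 17194, 22144 and 21803 in the second. In Nr2f6+/+ with anti-PD-L1 it stood at 19136, 17141 and 23834 in the first set and at 20789, 19338 and 21534 in the second. The 3 first-set Nr2f6-/- libraries lay below every other library of the study, including 18149, 15763 and 18782 in Nr2f6+/+ and 14293, 16442 and 14047 in Nr2f6-/- with IgG2b, while the second-set libraries of both genotypes overlapped.

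Over both sets the genotype difference of Hsp90ab1 was -0.46 (SE 0.18, adjusted p = 0.360). Within the first set it was -0.91 (SE 0.17, adjusted p = 0.027, limma), the 1 member called there beside 0.284% of all genes, and within the second set -0.02 (SE 0.14, adjusted p = 0.989), where 0 members and 0% of all genes were called. Over 32 other settings its adjusted p ranged from 0.027 to 0.989, and it was under 0.05 in 1 of them, the first set alone. The test of the difference between the sets, chosen after seeing the data, gave 0.89 (SE 0.24, adjusted p = 0.572; 0 members and 0% of all genes called, 5 members and 6.35% under an unadjusted 0.05). The other 4 were Hsp90aa1 with 0.71 (SE 0.29), Hspa8 with 0.60 (SE 0.27) and Dnajb1 with 0.81 (SE 0.36), which were less low or higher in Nr2f6-/- in the second set, and Herpud1 with -1.0 (SE 0.37).

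Hsp90aa1 followed the same libraries. It stood at 2101, 2630 and 2375 normalized counts in the first-set Nr2f6-/- libraries with anti-PD-L1 and at 4754, 3881 and 3502 in the second. All other groups lay between 3795 and 5614, so the first-set libraries were again the 3 lowest of the study. The genotype difference with anti-PD-L1 was -0.51 (SE 0.18, adjusted p = 0.328) over both sets, -0.86 (SE 0.20, adjusted p = 0.084) in the first and -0.15 (SE 0.17, adjusted p = 0.836) in the second. Within Nr2f6-/-, anti-PD-L1 against IgG2b gave -0.61 (SE 0.22, adjusted p = 0.307). Against Nr2f6+/+ with IgG2b the combined group gave -0.59 (SE 0.22, adjusted p = 0.295), and in the first set alone -0.98 (SE 0.20, adjusted p = 0.0435), the 1 member called there beside 0.417% of all genes. Over the 31 other settings of that comparison the adjusted p ranged from 0.0435 to 0.715.

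Within Nr2f6-/- with anti-PD-L1 the immediate-early sum set the same libraries apart, and was high where HSP90 was low. It was 32355 to 35487 in the 3 first-set and 16006 to 25071 in the 3 second-set libraries. In the corresponding Nr2f6+/+ libraries it was 11916 to 20395 and 11862 to 18796. Not all genes of the list did so in Nr2f6-/- with anti-PD-L1. Junb stood at 13878 to 16558 in the first set and at 3071 to 7059 in the second, and Jund at 2638 to 3376 and 1228 to 2127. Every other gene of the list overlapped between the sets, Fos with 175 to 221 and 214 to 458. With IgG2b the immediate-early sum was 32175 to 46381 in Nr2f6+/+ and 43631 to 46662 in Nr2f6-/-. Hsp90aa1 stood at 4408 to 5097 and at 3837 to 5614 in these libraries, so high sums stood beside higher Hsp90aa1 there. The part of the immediate-early sum in the HSP90 difference was not tested. The macrophage sum was 1018 to 2616 in the first-set and 917 to 1904 in the second-set Nr2f6-/- libraries, which overlap.

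As a single value within each library, the log2 ratio of Hsp90aa1 to Hsp90ab1 was -1.92 ± 0.14 (SD, n = 3) in Nr2f6+/+ with IgG2b, -1.66 ± 0.30 (SD, n = 3) in Nr2f6-/- with IgG2b, -2.21 ± 0.22 (SD, n = 6) in Nr2f6+/+ with anti-PD-L1 and -2.25 ± 0.31 (SD, n = 6) in Nr2f6-/- with anti-PD-L1. Both means with anti-PD-L1 lay below both means with IgG2b. The difference of anti-PD-L1 against IgG2b was -0.59 in Nr2f6-/- (exact two-sided permutation test, p = 0.0476, adjusted over 8 tests 0.286) and -0.29 in Nr2f6+/+ (exact permutation p = 0.0714, adjusted 0.286). Neither passed after adjustment, and the genotype differences were -0.04 with anti-PD-L1 (exact permutation p = 0.781) and 0.25 with IgG2b (exact permutation p = 0.3, where 3 against 3 cannot go below 0.1).

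Among the partners of HSP90, Stip1, the adaptor that links HSP70 to HSP90, stood at 545, 783 and 681 normalized counts in Nr2f6-/- with IgG2b and at 857 to 1206 (median 1058) with anti-PD-L1. The groups did not overlap, and the difference was 0.66 (SE 0.27, adjusted p = 0.399). In Nr2f6+/+ the IgG2b libraries stood at 972, 981 and 1027, above all 3 Nr2f6-/- libraries with IgG2b, and the anti-PD-L1 libraries spanned 615 to 1276. Ahsa1, which speeds the ATPase of HSP90 (89.2 to 527 over all libraries), and Chordc1, a co-chaperone (989 to 5640), reached no unadjusted p under 0.05 in any comparison of genotype or treatment.

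The HSP70 system followed. Hspa1a stood at 1898, 1087 and 1140 normalized counts in Nr2f6+/+ with IgG2b, 360, 1558 and 901 in Nr2f6-/- with IgG2b, 204 to 2534 (median 1459) in Nr2f6+/+ with anti-PD-L1 and 295 to 1491 (median 609) in Nr2f6-/- with anti-PD-L1. Hspa1b stood at 727, 1567 and 1274, at 414, 1149 and 1539, at 119 to 1500 (median 893) and at 254 to 1052 (median 760) in the same order. Every group overlapped every other for both genes. Replicate 3 of Nr2f6+/+ with anti-PD-L1 was lowest of all libraries in both.

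With anti-PD-L1, Hspa1a had a genotype difference of -1.0 (SE 0.45, adjusted p = 0.473, limma) over both sets. Hspa1b had one of 0.85 (SE 0.68) in the first set and -1.19 (SE 0.56) in the second. The sign of Hspa1b in the first set rested on replicate 3 of Nr2f6+/+. There the Nr2f6+/+ libraries stood at 1065, 1294 and 119 and the Nr2f6-/- libraries at 1052, 900 and 1022. Reads of Hspa1a and Hspa1b, which are near-identical, can be assigned to either copy, since the primary alignment of a multiply mapped read was kept. The sum of both genes was therefore also compared. The log2 sum was 11.3 ± 0.075 (SD, n = 3) and 10.8 ± 1.0 (SD, n = 3) with IgG2b (Nr2f6+/+ and Nr2f6-/-), and 10.9 ± 1.33 (SD, n = 6) and 10.3 ± 0.57 (SD, n = 6) with anti-PD-L1. Differences in the 4 comparisons lay between -0.41 and -0.57, and the smallest of the exact two-sided permutation p-values was 0.385 (adjusted over 8 tests 0.724), so no difference in inducible HSP70 beyond the spread between libraries was detectable.

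Bag3, a nucleotide exchange factor of HSP70 that steers clients to autophagy, had the smallest adjusted p of any member in a treatment comparison. It stood at 1574, 1058 and 1797 normalized counts in Nr2f6+/+ with IgG2b, at 652, 621 and 985 in Nr2f6-/- with IgG2b, at 255 to 773 (median 494) in Nr2f6+/+ with anti-PD-L1 and at 270 to 1237 (median 629) in Nr2f6-/- with anti-PD-L1. The Nr2f6+/+ libraries with IgG2b lay above every library of both single-change groups and overlapped 1 library of the combined group.

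Anti-PD-L1 against IgG2b in Nr2f6+/+ gave Bag3 a difference of -1.59 (SE 0.40, adjusted p = 0.101), and of -1.86 (SE 0.38, adjusted p = 0.0552) with the first set alone. DESeq2 on the recovered reads called it (adjusted p = 0.0225), beside 0.801% of all genes, and edgeR did not; over 31 other settings the adjusted p ranged from 0.0225 to 0.518. Genotype with IgG2b gave -0.97 (SE 0.46, adjusted p = 0.920), the combined group -1.31 (SE 0.40, adjusted p = 0.155), and the difference between the treatment differences was 1.25 (SE 0.56, adjusted p = 0.974). All of these comparisons hold the same 3 Nr2f6+/+ libraries with IgG2b, in which the macrophage sum was also highest; its part in the Bag3 difference was not tested.

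Hspa8, the constitutive HSP70, stood at 21352, 21214 and 22185 normalized counts in Nr2f6+/+ and at 19030, 15725 and 18135 in Nr2f6-/- with IgG2b, with no overlap. With anti-PD-L1 it ranged from 23020 to 30813 (median 26062) in Nr2f6+/+, above all 3 IgG2b libraries, and from 14101 to 29077 (median 22650) in Nr2f6-/-. The differences were -0.30 (SE 0.22) for genotype with IgG2b and 0.29 (SE 0.19, adjusted p = 0.813) for treatment in Nr2f6+/+, and neither passed.

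Dnaja1, a J-domain partner of HSP70, ranged from 1476 to 1991 normalized counts (median 1617) in Nr2f6-/- with anti-PD-L1 and from 1939 to 2238 (median 2138) in Nr2f6+/+ with anti-PD-L1. The ranges met in 1 library of each genotype, and the difference was -0.36 (SE 0.16, adjusted p = 0.474), with -0.28 (SE 0.22) in the first set and -0.45 (SE 0.14) in the second. The combined group against Nr2f6+/+ with IgG2b gave Dnaja1 a difference of -0.50 (SE 0.20, adjusted p = 0.374). Hsph1 and Hspa4, HSP110-type exchange factors, showed -0.70 (SE 0.33, adjusted p = 0.530) and -0.46 (SE 0.21, adjusted p = 0.503) in the combined group against Nr2f6+/+ with IgG2b. For Hsph1 the groups did not overlap, with 702 to 1018 (median 850) against 1225, 1250 and 1649. Hspa4 spanned 2479 to 5411 normalized counts over all libraries. Dnajb1 (936 to 2326) and Dnajb4 (7.29 to 401), further J-domain proteins, reached no unadjusted p under 0.05 in these comparisons.

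**Figure D3:**
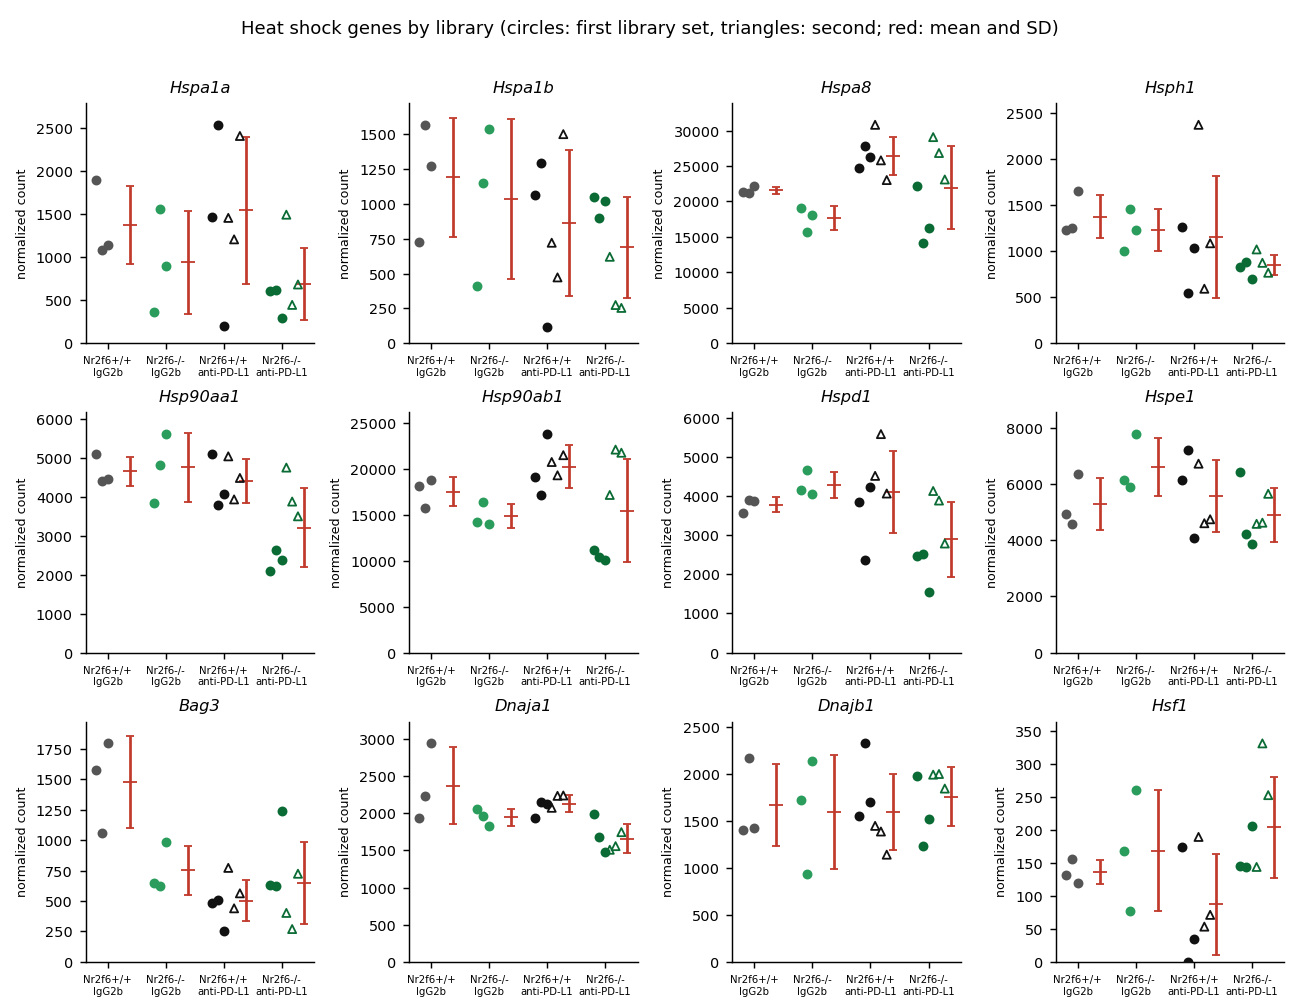
Normalized counts of 12 heat shock members in each library, by group; filled circles are the first library set, open triangles the second, and the red bar is mean and SD of the group. The 3 first-set libraries of Nr2f6-/- with anti-PD-L1 are the lowest of the study for Hsp90aa1 and Hsp90ab1, and the 3 libraries of Nr2f6+/+ with IgG2b lie highest for Bag3 apart from 1 library of Nr2f6-/- with anti-PD-L1.

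In mitochondria, Hspd1 and Hspe1 form the chaperonin and its lid, and Hspa9 is the HSP70 of the matrix. Hspd1 stood at 2470, 2534 and 1556 normalized counts in the first-set Nr2f6-/- libraries with anti-PD-L1 and at 4133, 3889 and 2790 in the second, against 2378 to 5589 (median 4152) in Nr2f6+/+ with anti-PD-L1. With IgG2b it stood at 4163, 4661 and 4045 in Nr2f6-/- and at 3573, 3912 and 3871 in Nr2f6+/+. The first-set Nr2f6-/- libraries were again low, though 1 Nr2f6+/+ library lay among them.

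For Hspd1 the genotype difference with anti-PD-L1 was -0.53 (SE 0.21, adjusted p = 0.368), with -0.67 (SE 0.24) in the first set and -0.40 (SE 0.20) in the second. Anti-PD-L1 against IgG2b in Nr2f6-/- gave -0.64 (SE 0.25, adjusted p = 0.369), and with the library set as a covariate -0.94 (SE 0.23, adjusted p = 0.0726). Hspe1, which shares its start region with Hspd1, gave -0.44 (SE 0.21, adjusted p = 0.481) in the latter comparison, with 3852 to 6447 (median 4607) normalized counts against 6164, 5897 and 7783. Hspa9, at 513 to 2984 over all libraries, reached no unadjusted p under 0.05.

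Hsf1, the main heat shock factor, stood at 144 to 331 normalized counts (median 175) in Nr2f6-/- with anti-PD-L1 and at 0 to 189 (median 62.3) in Nr2f6+/+ with anti-PD-L1. Of the 6 Nr2f6+/+ libraries, replicates 1 and 4 at 173 and 189 lay within the Nr2f6-/- range and the other 4 below it. The difference of 2.25 (SE 0.92, adjusted p = 0.400) rests in part on the library at 0, and it was 1.18 at the lowest of 32 other settings. Hsf2, the second factor (21.1 to 648 over all libraries), and Cryab (0.942 to 793) had SDs above 1 on the log2 scale and passed no unadjusted threshold. Hspb1, a small heat shock protein not tested here, had reads in 7 of 18 libraries, the highest being 71.4 normalized counts in replicate 2 of Nr2f6+/+ with anti-PD-L1.

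In the endoplasmic reticulum, Hspa5 (BiP) is the HSP70 of the lumen and the best-known target of the unfolded protein response, and Hsp90b1 (GRP94) is its HSP90. Hspa5 stood at 15136, 19413 and 20946 normalized counts in Nr2f6+/+ and at 17878, 19931 and 16394 in Nr2f6-/- with IgG2b. With anti-PD-L1 it ranged from 13641 to 17854 (median 14324) in Nr2f6+/+ and from 7715 to 15669 (median 14166) in Nr2f6-/-. Within Nr2f6-/- the treatments did not overlap.

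The Hspa5 difference of anti-PD-L1 against IgG2b was -0.47 (SE 0.19, adjusted p = 0.388) in Nr2f6-/- and -0.27 (SE 0.19, adjusted p = 0.837) in Nr2f6+/+, and the combined group gave -0.50 (SE 0.19, adjusted p = 0.329). Hsp90b1 gave -0.45 (SE 0.21, adjusted p = 0.480) in Nr2f6-/-, with 4587 to 7361 (median 5549) normalized counts against 6168, 9625 and 7538. None passed, and in both genotypes the macrophage and immediate-early sums were lower with anti-PD-L1 as well; their part in these differences was not tested.

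Calr and Canx, the lectin chaperones that hold newly made glycoproteins, were tightly measured. Calr stood at 15037, 11843 and 12514 normalized counts in Nr2f6+/+ with IgG2b and at 15526, 16414 and 15644 in Nr2f6-/- with IgG2b. With anti-PD-L1 it ranged from 15252 to 19281 (median 18067) in Nr2f6+/+ and from 12024 to 18887 (median 13965) in Nr2f6-/-. The Nr2f6+/+ libraries with IgG2b lay below all libraries of the other genotype with IgG2b and below all of their own genotype with anti-PD-L1.

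Calr gave 0.42 (SE 0.16, adjusted p = 0.546) for anti-PD-L1 in Nr2f6+/+, -0.28 (SE 0.13, adjusted p = 0.504) for genotype with anti-PD-L1 and -0.56 (SE 0.23, adjusted p = 0.974) for the difference between the treatment differences. Canx ranged from 6533 to 9102 (median 7685) in Nr2f6-/- and from 9007 to 10286 (median 9785) in Nr2f6+/+ with anti-PD-L1, with 1 Nr2f6-/- library above the lowest Nr2f6+/+ one. Its genotype difference was -0.31 (SE 0.13, adjusted p = 0.395), with -0.36 (SE 0.15) in the first set and -0.27 (SE 0.12) in the second.

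Pdia4, a disulfide isomerase that forms and reshuffles disulfide bonds, had the smallest adjusted p of any member for genotype with anti-PD-L1. It ranged from 22.1 to 614 normalized counts (median 272) in Nr2f6-/- and from 591 to 1165 (median 719) in Nr2f6+/+. Only replicate 4 of Nr2f6-/-, at 614, reached the Nr2f6+/+ range. The difference was -2.02 (SE 0.58, adjusted p = 0.194), with -2.09 (SE 0.66) in the first set and -1.95 (SE 1.24) in the second; over 32 other settings it lay between -2.35 and -1.41 with adjusted p-values of 0.098 to 0.783. With IgG2b, the Nr2f6+/+ libraries stood at 526, 489 and 509 and the Nr2f6-/- libraries at 552, 60.3 and 309. Pdia3 (367 to 1064 over all libraries) and Pdia6 (2797 to 5152), isomerases of the same family, reached no unadjusted p under 0.05.

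Of the sensors and their targets, Herpud1, which serves degradation of endoplasmic reticulum proteins, stood at 2913, 3139 and 2099 normalized counts in Nr2f6+/+ with IgG2b and at 1065 to 2447 (median 1701) with anti-PD-L1, which overlap. The difference was -0.69 (SE 0.26, adjusted p = 0.534), and the combined group gave -0.79 (SE 0.26, adjusted p = 0.206). Ern1, the sensor that splices Xbp1, was low, at 142, 78.2 and 198 in Nr2f6-/- with IgG2b and 1.80 to 79.2 (median 37.9) with anti-PD-L1, a difference of -2.38 (SE 1.13, adjusted p = 0.499) in which 1 library is at or below 3 reads. Xbp1, the factor it activates (2004 to 4025 over all libraries), Atf6, the sensor cleaved in the Golgi (233 to 1430), and Edem1, a degradation lectin (2939 to 4969), reached no unadjusted p under 0.05. Splicing of Xbp1 cannot be read from counts per gene. The remaining lumen members reached none either: the J-domain partners of BiP Dnajb9 (176 to 1117), Dnajb11 (771 to 1822) and Dnajc3 (791 to 3544), the exchange factor Hyou1 (202 to 836) and Creld2 (372 to 1506). Edem1 and Manf were both higher in Nr2f6-/- than in Nr2f6+/+ with IgG2b without overlap, Edem1 at 3967, 4123 and 4584 against 3436, 3072 and 2939 and Manf at 2204, 2325 and 2251 against 1847, 1729 and 1826, and neither reached an unadjusted p under 0.05.

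**Figure D4:**
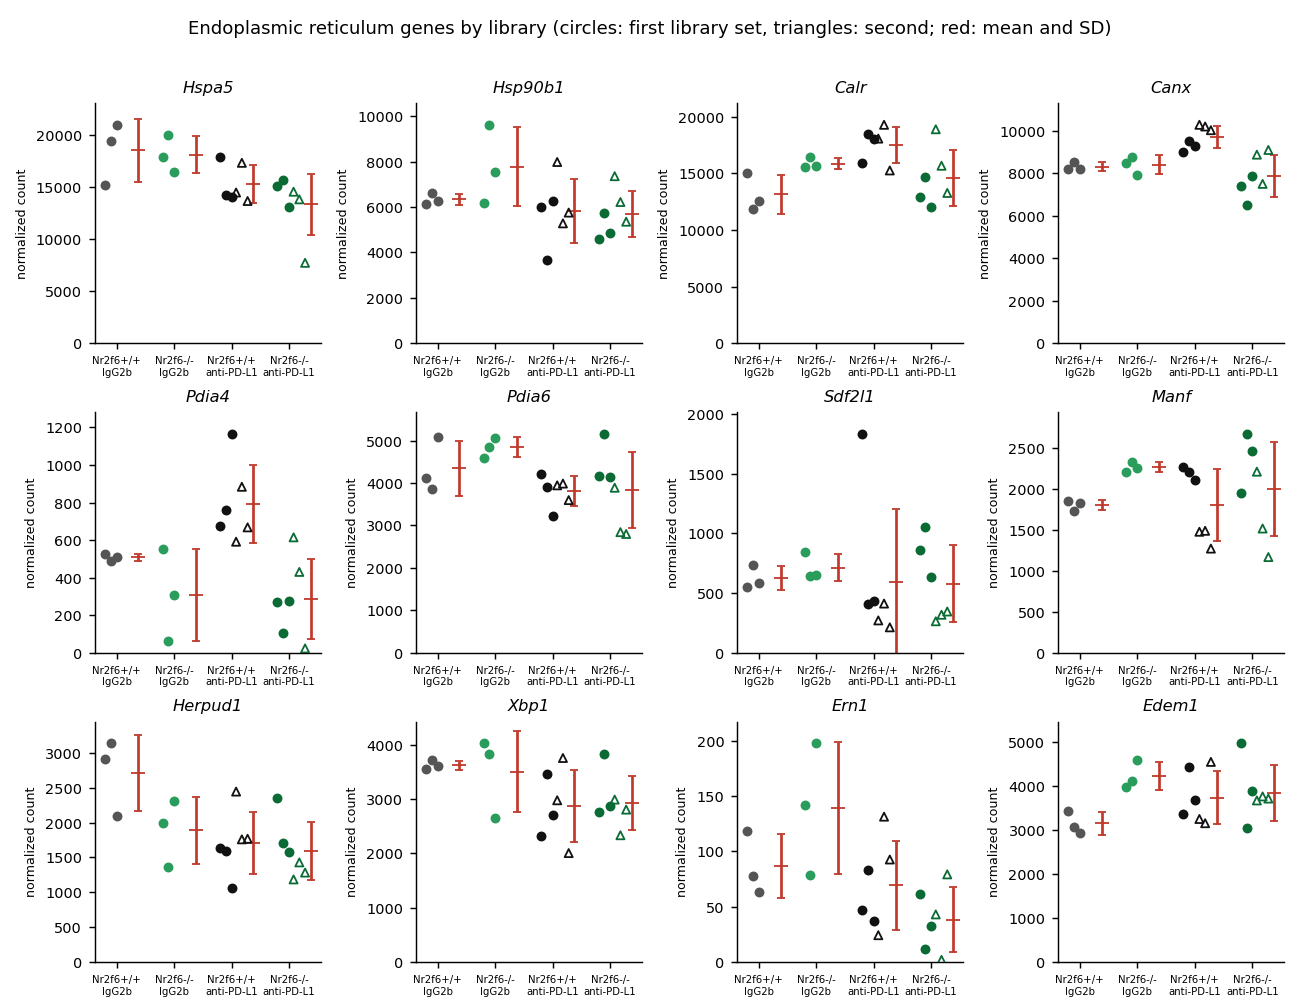
Normalized counts of 12 endoplasmic reticulum members in each library, by group; filled circles are the first library set, open triangles the second, and the red bar is mean and SD of the group. Within Nr2f6-/- every Hspa5 library with anti-PD-L1, at 7715 to 15669, lies below the 3 with IgG2b, and only 1 Nr2f6-/- library with anti-PD-L1 reaches the Pdia4 range of Nr2f6+/+ with anti-PD-L1.

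Between the library sets, with genotype held constant among anti-PD-L1 libraries, 0 members passed the adjusted threshold (0.292% of all genes) and 7 reached an unadjusted p under 0.05 (10.8%). Sdf2l1, a lumen protein of the BiP complex, stood at 1835, 408 and 435 normalized counts in Nr2f6+/+ and at 858, 1054 and 635 in Nr2f6-/- in the first set, and at 270, 412 and 212 and at 263, 318 and 345 in the second. All but 1 library of the second set lay below all of the first. The difference, second minus first, was -1.35 (SE 0.33, adjusted p = 0.0700), and it was under 0.05 in 3 of 28 other settings, whose adjusted p ranged from 0.0027 to 0.247. Manf, a secreted stress protein of the same compartment, stood at 1948 to 2665 in the 6 libraries of the first set and at 1165 to 2206 in those of the second and gave -0.61 (SE 0.17, adjusted p = 0.112).

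Higher in the second set were Hspd1 by 0.60 (SE 0.17, adjusted p = 0.112), Hsp90ab1 by 0.49 (SE 0.15, adjusted p = 0.137), Chordc1 by 0.83 (SE 0.28, adjusted p = 0.209), Hsp90aa1 by 0.41 (SE 0.16, adjusted p = 0.309) and Hspa8 by 0.31 (SE 0.14, adjusted p = 0.407), none past the threshold. The 5 higher members were thus heat shock genes (5.59% of all genes were higher at that level) and the 2 lower ones endoplasmic reticulum genes (5.22%). DESeq2 called 4 members here, Hsp90ab1, Hspd1, Manf and Sdf2l1, beside 2.3% of all genes. edgeR (TMM) called 0 members, beside 16 genes in all. In the genotype comparison with anti-PD-L1, 24 of the 39 members (61.5%) had the same direction in both sets, against 52.1% of all genes. Lower in both sets were 18 of the 39 members, beside 3088 of all 11992 genes.

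Other genes of the same pathways, counted as whole lists, passed no adjusted threshold in the genotype, treatment and combined comparisons over both library sets. Of 39 genes of cytosolic folding, which include the chaperonin TRiC and prefoldin, 26 were below 0 for genotype with anti-PD-L1 and 29 for anti-PD-L1 in Nr2f6-/-, with medians of -0.07 and -0.38. At an unadjusted p under 0.05, 3 and 8 of these were lower (5.07% and 5.35% of all genes) and 0 were higher (4.66% and 4.34%). Of 10 genes of mitochondrial folding, 2 and 7 were below 0 in the same comparisons, with medians of 0.13 and -0.20; 1 was higher in the former and 2 were lower in the latter at that level. Of 47 tested genes of endoplasmic reticulum folding and its stress response, 24 and 28 were below 0, with medians of -0.02 and -0.12; 4 were lower and 1 was higher in the former, and 4 were lower and 2 higher in the latter. Within the first library set 1 of the 47 was called, Ppp1r15a, which serves to restart translation after stress and is named after its values were seen: it was higher in Nr2f6-/- with anti-PD-L1 by 3.29 (SE 0.60, adjusted p = 0.027; 0.284% of all genes called) and lower with anti-PD-L1 in Nr2f6+/+ by a difference of -3.44 (SE 0.60, adjusted p = 0.0205; 0.25%), comparisons that share 3 libraries. Over both sets Ppp1r15a was not called in these comparisons, and in the second set 0% of all genes were called for genotype with anti-PD-L1. Between library sets 1 of the 47, Fkbp2, a prolyl isomerase named here after its values were seen, was higher in the second set. The difference was 1.07 (SE 0.24, adjusted p = 0.0452, limma), where 0.292% of all genes were called. With the anti-PD-L1 groups fitted alone, 0 genes were called between the sets.

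Read back against the sequences, 9 tested members hold a heat shock pair in their window. Their median difference was -0.27 for genotype with anti-PD-L1 (8 of 9 below 0), -0.14 and -0.44 for anti-PD-L1 in Nr2f6+/+ and Nr2f6-/- (7 and 8 below 0), and -0.70 for the combined comparison (9 below 0). The 9 members with an endoplasmic reticulum stress element had medians of -0.10 (7 below 0), -0.16 and -0.25 (5 and 8 below 0) and -0.17 (6 below 0) in the same order. These counts are a description of members chosen by letters, beside medians over all genes of -0.0049, -0.10, -0.04 and -0.12. For genotype with anti-PD-L1 the median of all tested heat shock members, given above, was about the same as that of the holders of a pair. For genotype with IgG2b the holders had -0.33 (7 of 9 below 0), beside -0.28 over all tested heat shock members. Members with an endoplasmic reticulum stress element had 0.16 there (3 of 9 below 0). For the treatment and combined comparisons no median of all heat shock members is given here. The holders are thus not set apart from other heat shock members there. The holders are also not all separate cases. Hspa1a and Hspa1b have near-identical windows, and Hspd1 and Hspe1 share 1 run of units. Hsp90aa1, Hsp90ab1 and Hspa8 had no window. Whether the motif goes with the differences was not tested.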

How the data were processed

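Total RNA of sorted CD3+ tumor-infiltrating T cells was sequenced in 18 libraries with a 3′-end kit on an Ion Torrent instrument. Per the methods, the authors used cutadapt and Trimmomatic for trimming, dropped reads under 22 bases, aligned against mm10 by STAR followed by Bowtie2 for unmapped reads, retained primary alignments only, and obtained counts per gene by HTSeq; tool versions, annotation and strand setting are not given in the sources used here. The deposited values are a signal, namely these counts divided by 1 size factor per library (DESeq2); dividing by the smallest step gave whole reads for 100% of values (within 0.01), so depth could be recovered. No pair of libraries was identical.

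Groups follow the genotype and treatment labels. The test was limma 3.58.1 (R 4.3.3), for genes averaging 10 normalized counts or more, on log2(normalized count + 1). It used 1 mean per group, moderated variances with a trend and Benjamini-Hochberg adjustment over all 11992 genes. All tests are two-sided and differences are on that log2 scale. Adding 1 shrinks changes of low genes, while single libraries at or near 0 can enlarge them. edgeR 4.0.16 and DESeq2 1.42.0 on the recovered reads were alternatives. Exact permutation tests used scipy 1.17.1. Code was tested on simulated data. Members are named where an unadjusted p is under 0.05 or by role. Members, lists and roles were chosen with earlier results of these data known. Reads of genes overlapping an expressed neighbour (Hspd1, Hspe1, Dnaja1, Hsp90b1, Pdia3, Manf) may be shared. Promoter and gene positions come from RefSeq (GRCm38.p6, the build of mm10); protein sequences were not used here.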

Additional observations from a re-analysis of the deposited data

Results flagged for a closer look

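Single libraries stood apart from the others of their group for 10 of 78 member-by-group searches among the anti-PD-L1 groups (6 libraries each), where chance gives about 1 in 20. The measure is the gap to the nearest library divided by the range of the group, both on the scale of log2(normalized count + 1). The normalized counts printed beside it are not on that scale. In Nr2f6+/+ with anti-PD-L1, Hspa1a in replicate 3 was low (204 normalized counts against 1205 to 2534 in the others, 0.705 of the range). Hsf1 (0 against 34.5 to 189, 0.680) and Dnajc3 (791 against 1522 to 1997, 0.707) were low in replicate 2. Ahsa1 was low in replicate 6 (89.2 against 344 to 502, 0.780), Pdia3 was low in replicate 5 (367 against 710 to 1021, 0.645), and Sdf2l1 was high in replicate 1 (1835 against 212 to 435, 0.667).

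In Nr2f6-/- with anti-PD-L1, replicate 6 was low for Hspa5 (7715 against 13072 to 15669, 0.744), Hyou1 (202 against 533 to 642, 0.839) and Hsf2 (21.1 against 169 to 470, 0.667). Atf6 was high in replicate 2 (1430 against 531 to 590, 0.892). Replicate 6 of this group held the lowest value of the study for 7 members, the most of any library. Without it the members' median genotype difference with anti-PD-L1 was -0.060 in place of -0.17.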

How the results depend on the processing

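The number of members called was 0 in every comparison and changed under few alternatives: within the first library set 1 was called for genotype with anti-PD-L1 (Hsp90ab1) and 1 for the combined comparison (Hsp90aa1), DESeq2 called 1 for anti-PD-L1 in Nr2f6+/+ (Bag3) and 4 between library sets, and leaving out 1 library gave 0 to 2 between library sets (1, Sdf2l1, without replicate 2 of Nr2f6+/+ with anti-PD-L1, beside 0.776% of all genes; 2, Sdf2l1 and Hsp90ab1, without replicate 3, beside 0.909%) and 0 elsewhere. The members' median moved by more than its spread between libraries (0.083) to -0.21 for anti-PD-L1 in Nr2f6+/+ after scaling to the same total, to -0.12 for anti-PD-L1 in Nr2f6-/- within the first set, and to -0.17 for the combined comparison with edgeR (TMM). Leaving out 1 library gave medians of -0.24 to -0.060 for genotype with anti-PD-L1, -0.19 to -0.019 for genotype with IgG2b, -0.18 to -0.09 and -0.29 to -0.15 for anti-PD-L1 in Nr2f6+/+ and Nr2f6-/-, -0.33 to -0.19 for the combined comparison, -0.15 to -0.04 for the difference between treatment differences and -0.073 to 0.044 between library sets; the ends past the spread came without replicate 6 of Nr2f6-/- with anti-PD-L1 (genotype with anti-PD-L1; library sets, also without replicate 1) and without replicate 3 of Nr2f6-/- with IgG2b. The cause was not tested.

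No single value passed its threshold, and the sign of some depended on the setting: for genotype with anti-PD-L1 within the first set, the log2 sum of Hspa1a and Hspa1b differed by 0.025 and the Hsp90aa1 to Hsp90ab1 ratio by 0.048. Leaving out 1 library, the sum ranged from -1.05 to -0.33 (genotype with anti-PD-L1), -0.90 to 0.0045 (genotype with IgG2b), -0.65 to 0.064 and -0.99 to -0.087 (anti-PD-L1 in Nr2f6+/+ and Nr2f6-/-), and the ratio from -0.12 to 0.034, 0.083 to 0.37, -0.37 to -0.22 and -0.70 to -0.42 in the same order. The count over all genes moved more than the members did: for genotype with anti-PD-L1 it was 21 and ran from 0 (second set) to 184 (DESeq2), for genotype with IgG2b from 0 to 88 (DESeq2), for treatment from 6 (without 1 library) to 94 around 29 in Nr2f6+/+ and from 8 (first set) to 230 around 39 in Nr2f6-/-, for the combined comparison from 10 (without 1 library) to 177 around 74, for the difference between treatment differences from 0 to 76, and between library sets from 0 (those groups alone) to 266 around 35, the highest each time with DESeq2.

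Replicate numbers are shared between groups but do not pair the libraries: deviations of same-numbered libraries correlated with a mean r of 0.0066 (-0.029 to 0.037). With the replicate number as a block, 0 members were called in any of the 6 comparisons, beside 0 to 79 genes in all. The members' median was -0.17 for genotype with anti-PD-L1 and -0.32 for the combined comparison. The second set holds no IgG2b library, so it gives a value for genotype with anti-PD-L1 alone, and neither the block nor the set as a covariate applies to the comparison of sets. Precision was lowest for the 8 members whose residual SD was above 1 on the log2 scale, and each IgG2b group held 3 libraries.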
